A study of Mus musculus with 6 samples.

Results

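Histones are the proteins around which nuclear DNA is wound, and their genes were examined in microglia, the resident immune cells of the brain. Of the 19225 genes listed in the expression table, 33 protein-coding genes carried a histone symbol (H1f, H2ac, H2az, H2bc, H3c, H3f, H4c, H4f or the older Hist1 to Hist4 names) and form the set described here. They comprised 27 replication-dependent genes, of which 19 lie on chromosome 13, 7 on chromosome 3 and 1 on chromosome 6, and 6 variant genes, *H3f3a*, *H3f3b*, *H2az1*, *H2az2*, *H1f0* and *H1f10*. RNA came from CD11b+ cells, enriched with magnetic beads from the perfused brains (without cerebellum) of stress-naive male mice, with 3 Cnr1+/+ mice (C57BL6/J in the labels) and 3 Cnr1-/- mice (Cnr1 tm1Zim, genotype d/d) and 1 library per mouse. The Cnr1 tm1Zim allele is a constitutive disruption of the gene for the cannabinoid receptor CB1, so it was present in every cell of those mice and not in microglia alone. The labels give an age of 3 months for all 6 mice, whereas the study's methods state a younger age.

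The labels were checked first against the targeted gene. In the 3 Cnr1+/+ libraries *Cnr1* was at 0, and in the 3 libraries labelled Cnr1-/- it was at 1.41, 1.21 and 1.79 cpm (CPM, reads scaled to a common library total), opposite to what the labels name. The 3′ reads used here need not cover the disrupted part of the gene, so this check is limited, and every direction below is between libraries as labelled. The value of 1 read in each library gave depths of 7708812 to 10723826 reads, so 3 reads correspond to 0.280 to 0.389 cpm. The 14 microglia markers summed to between 24259 and 29441 cpm in the 6 libraries. The neutrophil markers summed to between 308 and 573 cpm in 5 libraries and to 4153 cpm in Cnr1-/- library 2, which also stood apart for erythrocyte markers, with 2441 cpm against 225 to 322 cpm in the others.

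Replication-dependent histone genes supply the H1, H2A, H2B, H3 and H4 proteins that package newly copied DNA, and they lie in clusters of many near-identical genes without introns. Their mRNAs usually lack a poly(A) tail and end shortly after a conserved stem-loop, which is bound by the stem-loop binding protein SLBP. Variant histones are made throughout the cell cycle from ordinary polyadenylated mRNAs and replace the replication-dependent forms in cells that rarely divide, as most adult microglia do. The library kit primes from poly(A), so that it reads transcripts with a tail or with an internal run of A.

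The stem-loop was looked for in the annotated transcripts of the 33 genes (GENCODE M21, GRCm38), on the transcript strand, because it marks the class of mRNA described here. It was found in 24 of the 27 replication-dependent genes, in 0 of the 6 variant genes and in 68 of 21901 protein-coding genes, or 0.31%. The exceptions were *H2bc4*, *H2bc21* and *H1f1*. The following are shown for the 6 genes whose levels did not overlap between the groups and for *H2ac20* and *H4c2*, which carry stem-loops of their own kind, with the 16 bases of the stem-loop in capitals and the adjoining transcript in lower case.
Hist1h2ap: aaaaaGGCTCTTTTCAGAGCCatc
H1f2: caaaaGGCTCTTTTCAGAGCCaccac
H3c4: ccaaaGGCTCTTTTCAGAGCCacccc
H2bc6: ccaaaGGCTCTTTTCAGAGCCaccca
H4c9: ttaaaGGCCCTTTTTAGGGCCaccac
H4c4: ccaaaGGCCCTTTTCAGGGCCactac
H2ac20: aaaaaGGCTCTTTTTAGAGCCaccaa
H4c2: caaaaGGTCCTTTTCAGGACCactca

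The form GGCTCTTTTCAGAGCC was shared by 15 genes of types H1, H2A, H2B and H3, and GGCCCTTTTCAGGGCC by 5 genes, all of type H4. The form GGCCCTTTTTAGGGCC was found in *H4c9* and *H4c14*. The annotated transcript ended 3 bases after the stem-loop in *Hist1h2ap*, as in the printed sequence, and within 100 bases of it in 9 of the 24 genes. In the other 15 genes every annotated transcript ran on for more than 100 bases, including 330 bases in *H4c9*, 752 in *H3c4*, 770 in *H4c4*, 840 in *H1f2* and 1861 in *H2bc6*. The letters of a poly(A) signal, AATAAA or ATTAAA, were searched for in the last 40 bases of the annotated transcripts. They occurred in 9 of the 27 replication-dependent genes and in 5 of the 6 variant genes, and the share over all genes was not counted.

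**Figure D1:**
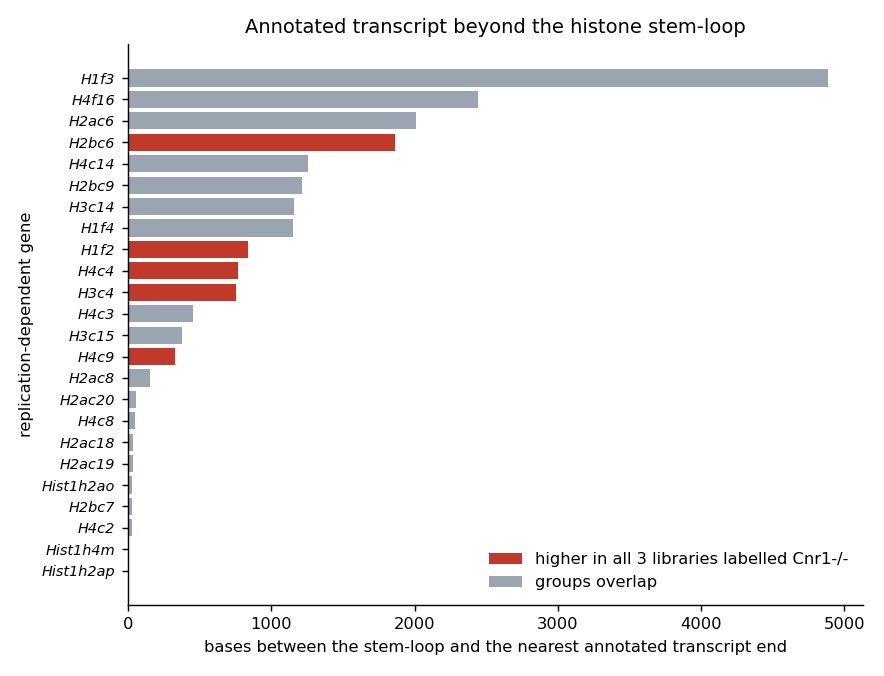
Bases between the stem-loop and the nearest annotated transcript end (x axis) for the 24 replication-dependent genes with a stem-loop (bars). Red bars are genes higher in all 3 libraries labelled Cnr1-/- than in any Cnr1+/+ library. Of these 6, *Hist1h2ap* ended 3 bases after the stem-loop and the other 5 ran on for between 330 and 1861 bases.

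All 33 histone genes had at least 1 library above the floor of 3 reads, and 18 were above it in all 6 libraries. The mean over the libraries was at least 10 cpm for 8 genes, which entered the main test, between 1 and 10 cpm for 14 genes and under 1 cpm for 11 genes. The mean was higher in the Cnr1-/- libraries for 24 genes and lower for 9. On chromosome 13, 16 genes had the higher mean in Cnr1-/- and 3 the lower, and on chromosome 3 these numbers were 3 and 4. All genes leaned the same way, with a median log2 difference of 0.08 over 6659 tested genes. It was between -0.016 and 0.008 when the libraries were rescaled in 3 other ways. The share of all genes with a higher mean was not counted, so these counts have no background. Because 3′ counting gives 1 read site per transcript, levels in cpm were not divided by gene length.

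In 6 genes, all on chromosome 13, every Cnr1-/- library lay above every Cnr1+/+ library, and in 0 genes the reverse was seen. *Hist1h2ap* and *H1f2* were 2 of the 8 tested histone genes, where 8.85% of all 6659 tested genes behaved so. *H3c4*, *H4c9*, *H4c4* and *H2bc6* were 4 of the 14 histone genes with a mean of 1 to 10 cpm, where the share over all 6929 genes of that range was 5.57%. For lower levels in Cnr1-/- these shares were 2.13% and 4.68%. With 3 libraries per group, the two-sided exact permutation test cannot give a p below 0.1, which is the p of each of these 6 genes. Among them, *H2bc6* can share reads with *H1f4*, whose mean was lower in Cnr1-/-, and the sum of that pair was not computed.

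**Figure D2:**
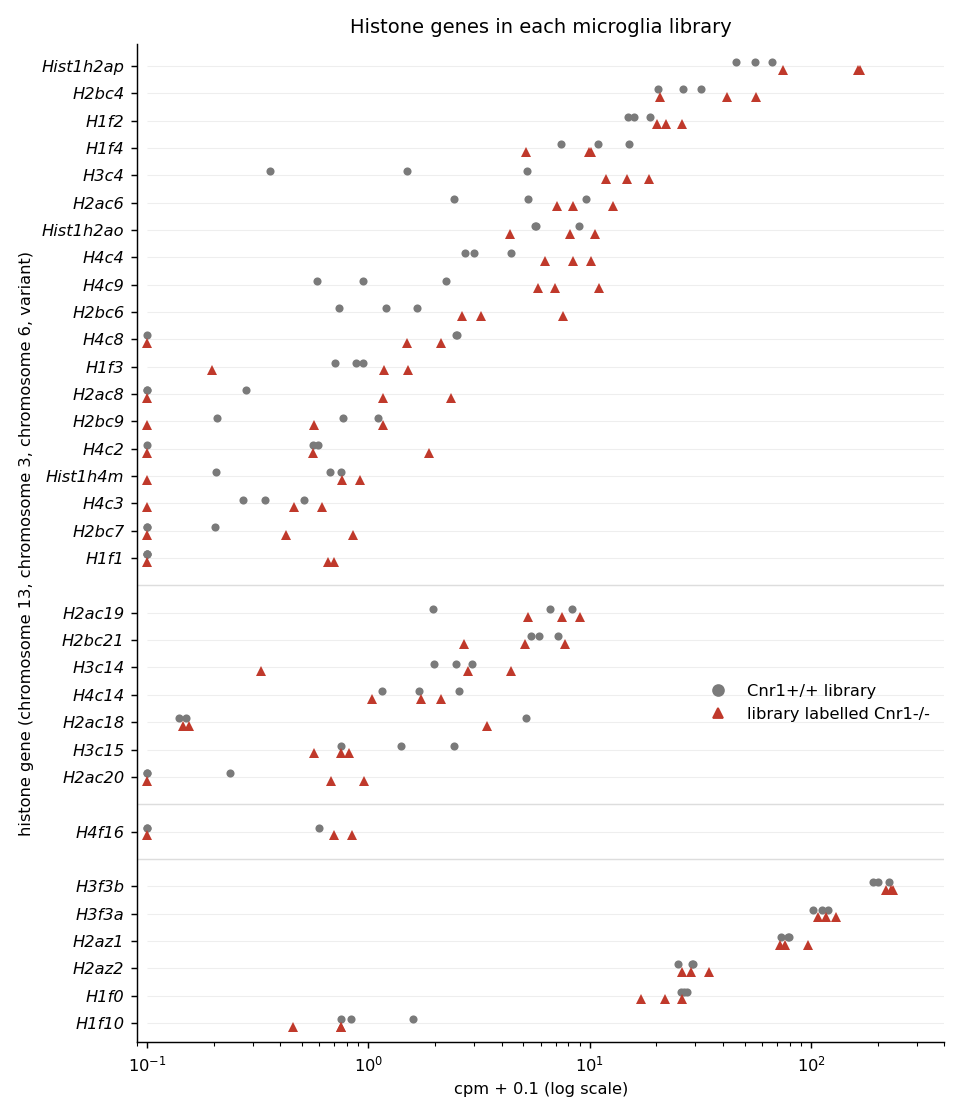
Level of each of the 33 histone genes (rows) in each library, as cpm + 0.1 on a log axis. Grey circles are the 3 Cnr1+/+ libraries and red triangles the 3 libraries labelled Cnr1-/-. Rows are grouped by chromosome 13, chromosome 3, chromosome 6 and variant genes, and sorted by mean level. The red triangles lie to the right of the circles for *Hist1h2ap*, *H1f2*, *H3c4*, *H4c9*, *H4c4* and *H2bc6*, all in the upper block.

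In the limma test on log2(cpm + 0.1), 2 of the 8 tested histone genes had a nominal p under 0.05, both higher in the Cnr1-/- libraries, against 5.09% of all tested genes in that direction and 0.931% in the other. Under each of the other 3 scalings the 2 genes were *Hist1h2ap*, higher, and *H1f0*, lower. The split over all genes with a nominal p under 0.05 moved as well, from 339 higher and 62 lower to 197 and 178 with centring on the median, 163 and 197 with quantiles and 142 and 212 with equal totals without mitochondrially encoded genes. The median log2 difference was 0.50 for the 3 tested replication-dependent genes, 0.08 for the 5 tested variant genes and 0.08 for all tested genes. With no minimum level, 8 of the 33 histone genes had a nominal p under 0.05 and all 8 were higher in Cnr1-/-, against 3.68% of 19225 genes in that direction and 1.48% in the other. These were *Hist1h2ap*, *H3c4*, *H4c9*, *H4c4*, *H2bc6*, *H2ac6*, *H1f2* and *H2bc4*, all on chromosome 13.

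**Figure D3:**
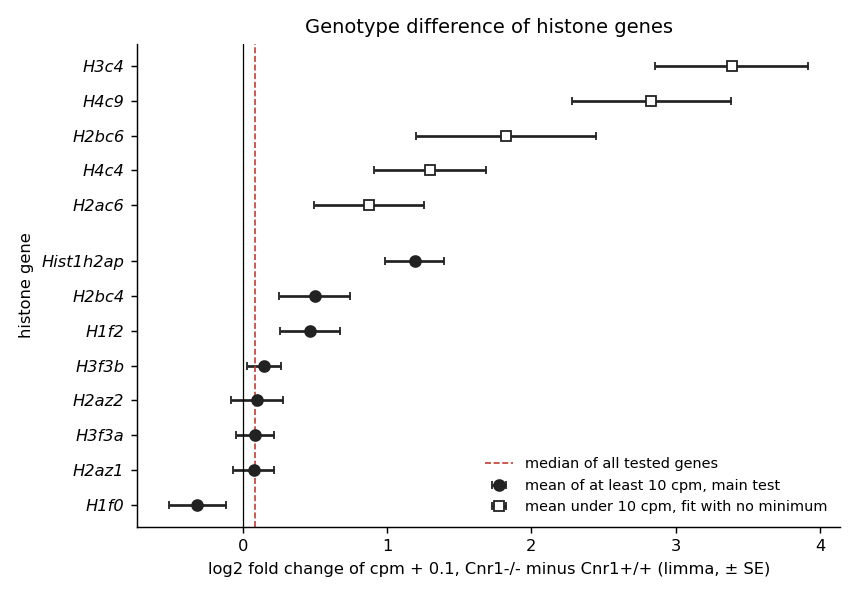
Log2 fold change of cpm + 0.1 (x axis), Cnr1-/- minus Cnr1+/+, with the standard error from limma, for the 8 tested histone genes (filled circles) and for the 5 genes under 10 cpm with a nominal p under 0.05 in the fit with no minimum (open squares). The dashed line is the median of all tested genes, 0.08. The variant genes *H3f3b*, *H2az2*, *H3f3a* and *H2az1* lie close to it, and *H3c4*, at 3.39, is farthest from it.

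H2A and H2B pair to form the outer dimers of the nucleosome. *Hist1h2ap*, an H2A gene on the minus strand at chr13:21833026-21833507 (GRCm38), was the most abundant replication-dependent gene. Its level was 45.8, 55.4 and 66.2 cpm in the Cnr1+/+ libraries and 74.4, 166 and 162 cpm in the Cnr1-/- libraries. Cnr1-/- library 1 stood just above the highest Cnr1+/+ library, and the other two Cnr1-/- libraries were far above all others. The log2 fold change was 1.19 ± 0.21 (SE, n = 3 per group), that is 2.28-fold, with a limma adjusted p of 0.0082. Of all tested genes, 0.0751% were over 1.5-fold higher in Cnr1-/- at an adjusted p under 0.1. The adjusted p was 0.140, 0.171 and 0.214 when the libraries were rescaled to the median, to equal totals without mitochondrially encoded genes or by quantiles, 0.825 without the mean-variance trend and 0.121 without Cnr1+/+ library 2. The log2 fold change stayed between 0.99 and 1.57 when any single library was left out, with the lower value without Cnr1-/- library 2.

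Reads of *Hist1h2ap* are not separable from those of other H2A genes by sequence. Of the 433 stretches of 50 bases in its transcript, the length of 1 read, 403 also occur in *Hist1h2ao* (chr13:21810465-21810944), including all of its last 100 bases. *Hist1h2ao* itself was listed at 8.85, 5.64 and 5.55 cpm in Cnr1+/+ and at 4.26, 8.03 and 10.5 cpm in Cnr1-/-, so its groups overlapped. The sum of the pair was 54.7, 61.1 and 71.7 cpm in Cnr1+/+ and 78.6, 174 and 173 cpm in Cnr1-/-, which again did not overlap. H2A genes that share reads with *Hist1h2ap* but are not listed in the table were not analysed here.

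The H2A genes *H2ac19* (chr3:96239749-96240276) and *H2ac18* (chr3:96245497-96246082) were another such pair. All 479 stretches of 50 bases of *H2ac19* also occur in *H2ac18*. *H2ac18* was listed at 0.0495, 0.0396 and 5.05 cpm in Cnr1+/+ and at 3.35, 0.0539 and 0.0448 cpm in Cnr1-/-, while *H2ac19* was at its lowest, 1.85 and 5.15 cpm, in the very libraries where *H2ac18* was high. Their sum varied little, from 6.58 to 8.95 cpm over the 6 libraries, 1.36-fold. Where one gene of the pair was high the other was low, and neither is described as a single gene.

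**Figure D4:**
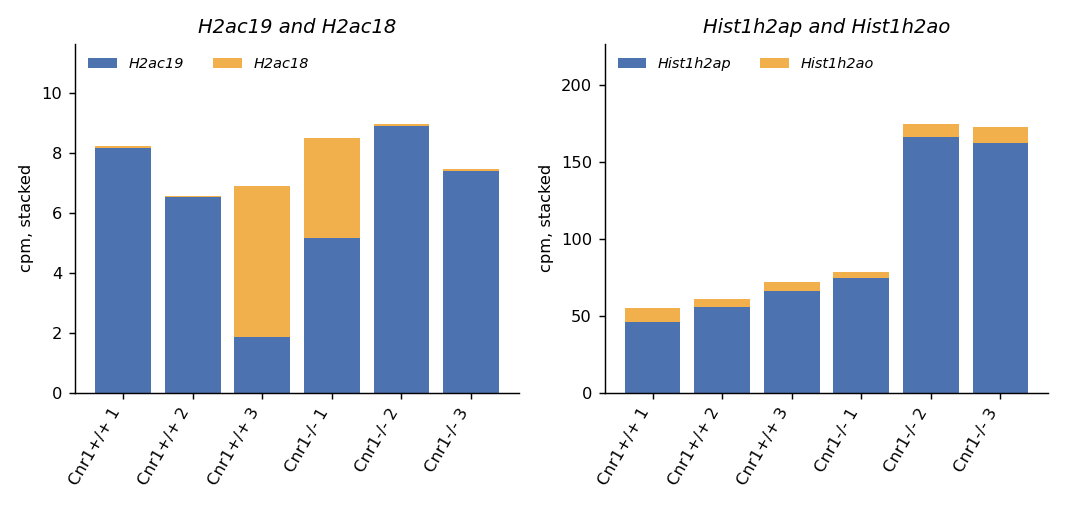
Stacked cpm (y axis) of 2 pairs of H2A genes with near-identical transcripts in each library (x axis). In the left panel the share of *H2ac18* (yellow) jumps between libraries while the sum stays between 6.58 and 8.95 cpm. In the right panel *Hist1h2ap* (blue) makes up most of the sum with *Hist1h2ao* (yellow), and all 3 Cnr1-/- sums are above the Cnr1+/+ sums.

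*H2ac6*, an H2A gene at chr13:23681467-23683948, was listed at 2.34, 5.18 and 9.54 cpm in Cnr1+/+ and at 8.32, 6.98 and 12.7 cpm in Cnr1-/-. The groups overlapped, through Cnr1+/+ library 3. Without a minimum level its log2 fold change was 0.87 ± 0.38 with a nominal limma p of 0.027 (adjusted p of 0.903), and the log2 fold change was 0.36 without Cnr1+/+ library 1 and 1.35 without Cnr1+/+ library 3. The nominal p was over 0.05 when Cnr1+/+ library 1 or 2 or Cnr1-/- library 1 or 3 was left out (0.313, 0.0756, 0.0760 and 0.187). *H2ac8* and *H2ac20* were at or close to 0 in most libraries and reached at most 2.25 and 0.851 cpm, both in Cnr1-/- library 2.

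Among the H2B genes, *H2bc4* (chr13:23684199-23692908) was the most abundant and is annotated without a stem-loop. It was listed at 20.2, 31.8 and 26.4 cpm in Cnr1+/+ and at 20.7, 41.4 and 56.0 cpm in Cnr1-/-. Cnr1-/- library 1 lay within the Cnr1+/+ range and the other two above it. It had a log2 fold change of 0.50 ± 0.25 with a nominal limma p of 0.0535. This value depended on single libraries. It was 0.19 (nominal p of 0.463) without Cnr1-/- library 3 and 0.33 (0.214) without Cnr1+/+ library 1, but 0.90 (0.00033) without Cnr1-/- library 1 and 0.65 (0.032) without Cnr1+/+ library 2.

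*H2bc6* (chr13:23583670-23621124, minus strand) was listed at 1.56, 1.10 and 0.633 cpm in Cnr1+/+ and at 3.13, 7.47 and 2.55 cpm in Cnr1-/-. All Cnr1-/- libraries were higher, and library 2 was the highest of them. Its log2 fold change without a minimum level was 1.82 ± 0.63 with a nominal limma p of 0.0057 (adjusted p of 0.698), and 1.37 with a nominal p of 0.0884 without Cnr1-/- library 2. The span of this gene overlaps the linker histone gene *H1f4* on the same strand, and the last 100 bases of *H1f4* also occur in *H2bc6*. Reads from that end can be assigned to either gene, and the mean of *H1f4* was lower in Cnr1-/-. The sum of this pair was not computed, so the separation of the groups in *H2bc6* as a single gene is uncertain. *H2bc21*, an H2B gene of chromosome 3 with no shared stretch of 50 bases and whole reads in all 6 libraries, was listed at 5.32, 7.08 and 5.78 cpm in Cnr1+/+ and at 2.6, 7.65 and 5.01 cpm in Cnr1-/-, so its groups overlapped. *H2bc7* and *H2bc9* did not exceed 1.06 cpm in any library.

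H3 and H4 form the central tetramer of the nucleosome. The largest log2 fold change of the 33 genes in the fit with no minimum level was that of *H3c4*, an H3 gene on the plus strand at chr13:23575763-23577011. Its level was 0.259, 1.40 and 5.11 cpm in the Cnr1+/+ libraries and 14.6, 11.7 and 18.4 cpm in the Cnr1-/- libraries. Every Cnr1-/- value was well above the highest Cnr1+/+ value, and that of Cnr1+/+ library 1 was below the floor. The counts were 2, 14 and 48.6 reads against 135, 126 and 154 reads. The log2 fold change was 3.39 ± 0.53 with a limma adjusted p of 0.00053 over 19225 genes, of which 0.0572% were over 1.5-fold higher in Cnr1-/- at an adjusted p under 0.1, and the log2 fold change stayed between 2.40 and 4.33 when single libraries were left out. The log2 ratio of the group means was lower, 2.73, and the fitted value was 2.57 with a pseudocount of 1. The adjusted p rose to 0.839, 0.940, 0.375 and 0.208 without Cnr1+/+ library 2 and Cnr1-/- libraries 1, 2 and 3. Of the transcript's stretches of 50 bases, 24.8% also occur in other genes, but none of those in its last 100 bases, where 3′ reads are expected to start.

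*H4c9* (chr13:22040636-22041362, minus strand) encodes H4 and was listed at 2.13, 0.483 and 0.841 cpm in Cnr1+/+ and at 5.71, 6.84 and 10.9 cpm in Cnr1-/-. The groups were well separated. Its log2 fold change without a minimum level was 2.83 ± 0.55 with a limma adjusted p of 0.016. The log2 ratio of the group means was 2.76, and the fitted value was 2.06 with a pseudocount of 1. Leaving out single libraries gave 2.39 to 3.36, with an adjusted p of 0.020 without Cnr1+/+ library 1 and between 0.233 and 0.940 without any of the other 5. *H4c4* (chr13:23581598-23582735) was listed at 2.90, 2.64 and 4.31 cpm in Cnr1+/+ and at 8.34, 10.01 and 6.17 cpm in Cnr1-/-, again with every Cnr1-/- library higher. Its log2 fold change was 1.29 ± 0.39 with a nominal limma p of 0.0018 (adjusted p of 0.473), and 1.14 to 1.501 without single libraries. As in *H3c4*, no stretch in the last 100 bases of *H4c9* or *H4c4* was shared with another gene.

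The other H4 genes did not separate the groups. *H4c8* ranged from 0 to 2.41 cpm in Cnr1+/+ and from 0 to 2.02 cpm in Cnr1-/-, and *H4c14* of chromosome 3 from 1.05 to 2.46 cpm and from 0.933 to 2.03 cpm. *H4c2*, *H4c3*, *Hist1h4m* and the single chromosome 6 gene *H4f16* had means under 1 cpm. The H3 genes of chromosome 3, *H3c14* and *H3c15*, had means of 2.39 and 1.02 cpm. All stretches of 50 bases of *H3c14* occur in other genes, 617 of them in *H3c15*, so its single value is uncertain. *H3c14* was at 0.226 cpm in Cnr1-/- library 2 and at 4.29 cpm in Cnr1-/- library 3, a spread that covered the whole Cnr1+/+ range of 1.89 to 2.85 cpm. The sum of the pair was 3.49, 3.68 and 4.21 cpm in Cnr1+/+ and 3.36, 0.692 and 5.01 cpm in Cnr1-/-, which overlapped.

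Linker histones of type H1 bind the DNA between nucleosomes. *H1f2* (chr13:23738808-23740367), which encodes H1.2, was listed at 14.8, 18.6 and 15.7 cpm in Cnr1+/+ and at 19.99, 22.0 and 26.0 cpm in Cnr1-/-. The groups did not overlap, but the gap between them was small. In the main test its log2 fold change was 0.47 ± 0.21 with a nominal limma p of 0.034 (adjusted p of 0.809). This value was between 0.37 and 0.39 with a nominal p of 0.0507 to 0.0680 under the other 3 scalings, and the nominal p was 0.0818, 0.0639, 0.0592 and 0.147 without Cnr1+/+ library 1 or 3 or Cnr1-/- library 2 or 3.

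*H1f4* was listed at 10.8, 14.9 and 7.34 cpm in Cnr1+/+ and at 5.04 to 10.003 cpm in Cnr1-/-, and was the most abundant chromosome 13 gene with the lower mean in Cnr1-/-. Its groups overlapped, and the log2 fold change without a minimum level was -0.41 ± 0.31. Its level also depends on how reads shared with *H2bc6*, which was higher in Cnr1-/-, were divided. *H1f3* was between 0.0958 and 1.41 cpm. *H1f1* was listed at 0 in 4 libraries and at 0.560 and 0.596 cpm (6 and 5 reads) in Cnr1-/- libraries 2 and 3.

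The variant genes were the more abundant part of the histone mRNA in these libraries. *H3f3a* and *H3f3b* both encode H3.3, the replacement H3 that is built into chromatin outside replication. *H3f3b* was listed at 201, 191 and 226 cpm in Cnr1+/+ and at 218, 233 and 230 cpm in Cnr1-/-, and *H3f3a* at 112, 102 and 119 cpm and at 116, 130 and 107 cpm. Both pairs of groups overlapped. The log2 fold changes were 0.15 ± 0.12 for *H3f3b* (nominal limma p of 0.228) and 0.08 ± 0.13 for *H3f3a* (0.525), and that of *H3f3a* was slightly negative under 2 of the 3 other scalings. *H3f3a* overlaps an antisense gene, *H3f3aos*, and whether strand was used in counting is not given in the sources used here.

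*H2az1* and *H2az2* encode H2A.Z, an H2A variant found at promoters. *H2az1* was listed at 79.3, 78.5 and 73.2 cpm in Cnr1+/+ and at 76.4, 96.6 and 72.1 cpm in Cnr1-/-. Its highest and its lowest value were both in Cnr1-/- libraries. *H2az2* was listed at 29.1, 25.0 and 28.9 cpm and at 28.7, 34.6 and 26.1 cpm, and was again highest in Cnr1-/- library 2. The log2 fold changes were 0.07 ± 0.14 (nominal limma p of 0.601) and 0.10 ± 0.18 (0.585). That of *H2az1* was at or below 0 under the other 3 scalings and without Cnr1-/- library 2, and that of *H2az2* was -0.012 without Cnr1-/- library 2.

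*H1f0* encodes H1.0, a linker histone that accumulates in non-dividing cells, and was the one tested histone gene with a lower mean in Cnr1-/-. It was listed at 26.5, 25.7 and 27.2 cpm in Cnr1+/+ and at 17.0, 26.0 and 21.7 cpm in Cnr1-/-, in whole reads in all 6 libraries and with no stretch of 50 bases shared. It too overlaps an antisense gene, *Gm49544*, from whose reads its own cannot be told apart if strand was not used in counting. The Cnr1+/+ libraries were close to each other, and Cnr1-/- libraries 1 and 3 were below all of them. The log2 fold change was -0.32 ± 0.20 with a nominal limma p of 0.121. It was between -0.41 and -0.38 with a nominal p of 0.0301 to 0.0391 under the other 3 scalings, and -0.46 with 0.0475 without Cnr1-/- library 2, but -0.16 with 0.474 without Cnr1-/- library 1. *H1f10* had 3 to 15 reads per library and a mean of 0.757 cpm.

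Summed over genes, the replication-dependent class reached 134, 162 and 161 cpm in Cnr1+/+ and 183, 319 and 343 cpm in Cnr1-/-. The sums did not overlap, and their mean was 1.85-fold higher in Cnr1-/- (log2 ratio of 0.88). The variant class summed to 448, 423 and 475 cpm and to 457, 521 and 457 cpm, a log2 ratio of 0.09 that was at or just below 0 under 2 of the other scalings. The replication-dependent sum amounted to 0.299 to 0.383 of the variant sum in the Cnr1+/+ libraries and to 0.401 to 0.749 in the Cnr1-/- libraries. This ratio within a library does not change when a whole library is multiplied by a factor. No test was made of these sums, since the genes were chosen with earlier results of these data known and can share reads.

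*Hist1h2ap* made up between 34.2% and 52.1% of the replication-dependent sum. Without it the class still summed to 88.1, 107 and 95.2 cpm in Cnr1+/+ and to 109, 153 and 180 cpm in Cnr1-/-, a log2 ratio of 0.61. The 24 replication-dependent genes under 10 cpm alone summed to between 53.1 and 56.5 cpm in Cnr1+/+ and to 68.2, 89.1 and 98.3 cpm in Cnr1-/-. By chromosome, the 19 genes of chromosome 13 had a log2 ratio of 0.98, whereas the 7 of chromosome 3 summed to between 18.1 and 19.5 cpm in Cnr1+/+ and between 16.6 and 19.5 cpm in Cnr1-/-, a log2 ratio of -0.03. By type, the log2 ratio of the replication-dependent sums was 1.57 for H3, 1.20 for H4, 1.09 for H2A, 0.55 for H2B and 0.20 for H1, and the groups did not overlap for H3, H4 and H2A. The variant H1 sum (*H1f0* and *H1f10*) did not overlap either but was lower in Cnr1-/-, at 27.1, 27.2 and 28.0 cpm in Cnr1+/+ and 17.6, 26.7 and 22.1 cpm in Cnr1-/-, a log2 ratio of -0.31, with Cnr1-/- library 2 just below the Cnr1+/+ libraries. The variant H2A and H3 sums overlapped.

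**Figure D5:**
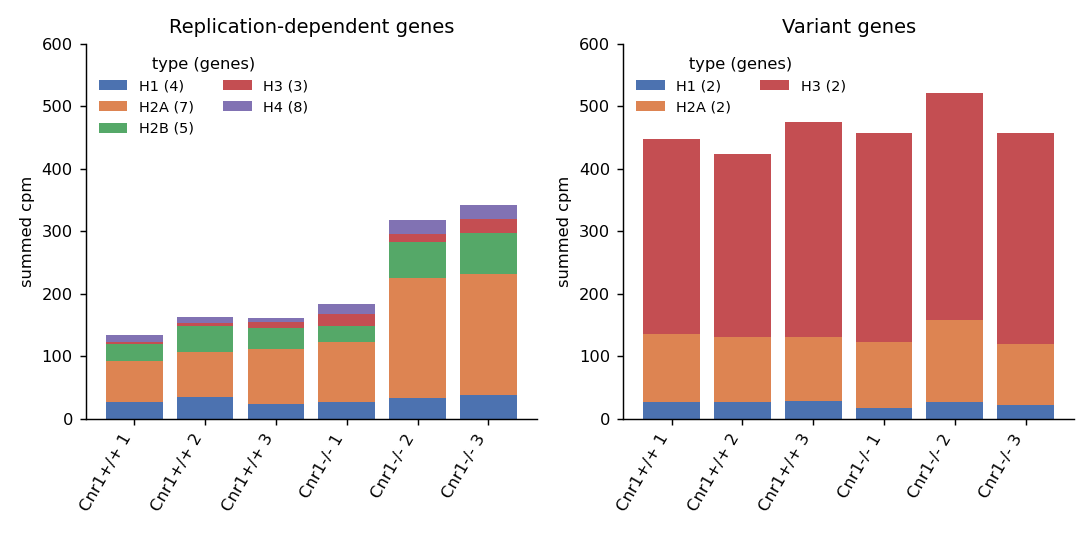
Summed cpm (y axis) in each library (x axis) of the 27 replication-dependent genes (left) and the 6 variant genes (right), stacked by histone type, with the number of genes of each type in the legend. The replication-dependent sums of the Cnr1-/- libraries, 183 to 343 cpm, lie above those of Cnr1+/+, 134 to 162 cpm, whereas the variant sums overlap.

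In bulk RNA, more cells with histone mRNA and more histone mRNA per cell cannot be told apart. Genes that are active in S phase or in cell division were therefore listed beside the histone genes. Of 39 listed, 6 were tested, and 1 of these had a nominal limma p under 0.05, against 5.09% of all tested genes higher and 0.931% lower. Over the whole list, the groups did not overlap in 5 genes that were higher in Cnr1-/- and in 1, *Mcm6*, that was lower. The 5 were *Mki67*, a marker of dividing cells (means of 3.898 and 7.70 cpm in Cnr1+/+ and Cnr1-/-), the ribonucleotide reductase genes *Rrm1* (5.87 and 7.87 cpm) and *Rrm2* (1.04 and 2.23 cpm), *Cenpf* (4.33 and 6.77 cpm) and *Cdc6* (0.120 and 1.22 cpm). Apart from *Cdc6*, which was under 1 cpm and has no share to set beside it, they and *Mcm6* lay in the range of 1 to 10 cpm. There the share over all genes was 5.57% for higher and 4.68% for lower levels in Cnr1-/-. How many of the listed genes lie in that range was not counted, and none of the genes without overlap was tested. The tested gene with a nominal p under 0.05 was *Hmgb2*, which encodes a chromatin protein, at 7.35, 11.5 and 4.58 cpm in Cnr1+/+ and 11.9, 18.2 and 9.89 cpm in Cnr1-/- (log2 fold change of 0.82 ± 0.33, nominal p of 0.0199). It passed the minimum of 10 cpm only through the Cnr1-/- libraries (means of 7.80 and 13.3 cpm). Its p and the count of 1 therefore carry no weight as support. The list summed to between 252 and 256 cpm in Cnr1+/+ and to 258, 348 and 270 cpm in Cnr1-/-, highest in Cnr1-/- library 2. These sums did not overlap. *Tubb5* and *Mcm3*, its most abundant members, had log2 fold changes of 0.18 ± 0.14 and -0.02 ± 0.20. The median over its 6 tested genes was 0.25, against 0.08 for all tested genes. The list sum of Cnr1-/- library 1, 258 cpm, was just above the highest Cnr1+/+ sum, 256 cpm. The part of dividing cells in the histone values was not tested.

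Genes for the processing of histone mRNA 3′ ends were measured as the other side of the stem-loop. Of 19 listed, 16 were tested and 0 had a nominal limma p under 0.05 (all tested genes, 5.09% higher and 0.931% lower), and their median log2 fold change was 0.05 against 0.08 for all tested genes. *Slbp*, which encodes the protein that binds the stem-loop, was at 19.7, 17.2 and 18.5 cpm in Cnr1+/+ and at 23.2, 23.2 and 21.8 cpm in Cnr1-/-, which did not overlap (log2 fold change of 0.30 ± 0.20, nominal p of 0.138). The other gene of the 19 without overlap, also higher, was *Lsm1*, below the minimum level (means of 3.78 and 5.14 cpm in Cnr1+/+ and Cnr1-/-). In that direction the shares over all genes were 8.85% of tested genes and 5.57% of those of 1 to 10 cpm. *Srrt* and *Tut7* were the most abundant of the list, with log2 fold changes of 0.19 ± 0.14 and 0.13 ± 0.14. Of the 31 listed histone chaperones and exchange factors, 21 were tested and 0 had a nominal p under 0.05 (against the same shares), with a median log2 fold change of 0.09. The groups did not overlap in 2 of the 31, both lower in Cnr1-/-: *Hira*, which encodes an H3.3 chaperone and was below the minimum level (means of 7.46 and 3.56 cpm in Cnr1+/+ and Cnr1-/-), and *Npm1* (97.2 and 87.9 cpm, nominal p of 0.273). Over all genes the groups did not overlap in that direction in 2.13% of tested genes and in 4.68% of those of 1 to 10 cpm. *Atrx* and *Ubn1*, which take part in the deposition of H3.3, were the most abundant, with log2 fold changes of 0.03 ± 0.12 and 0.15 ± 0.13. Of 5 further variant histone genes outside the symbols used here, *Macroh2a1* and *H2aj* were tested and had log2 fold changes of 0.09 ± 0.15 and 0.20 ± 0.23. *H2bu2*, below the minimum level, was at 0.908, 1.297 and 0.947 cpm in Cnr1+/+ and at 1.84, 2.52 and 3.58 cpm in Cnr1-/-, which did not overlap (5.57% of genes of 1 to 10 cpm in that direction).

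Neutrophil and erythrocyte markers had by far their highest sums in a single library, Cnr1-/- library 2. Of the 10 tested neutrophil markers, 7 had a nominal limma p under 0.05 and all 7 were higher in Cnr1-/-, as were 4 of the 5 tested erythrocyte markers, against 5.09% of all tested genes. Among the 7, *Ltf*, *Retnlg* and *Mmp8* passed the minimum of 10 cpm only through the Cnr1-/- libraries (means of 7.09, 8.77 and 4.49 cpm in Cnr1+/+). The groups did not overlap in 1 of the 13 listed neutrophil markers (*Ltf*) and in 2 of the 10 erythrocyte markers (*Alas2* and *Slc4a1*), all higher in Cnr1-/-, against 8.85% of tested genes and 5.57% of genes of 1 to 10 cpm in that direction. *Alas2* and *Slc4a1* were in the latter range only through the Cnr1-/- libraries (means of 0.227 and 0.0683 cpm in Cnr1+/+), so that share is not a fair background for them. The 7 monocyte markers summed to between 48.0 and 61.9 cpm in 5 libraries and to 126 cpm in Cnr1-/- library 2, where *Chil3* alone was at 68.4 cpm (2.63 to 9.63 cpm in the others). *Ly6c2*, at 11.2 cpm (0.716 to 3.44 cpm in the others), and *Plac8*, at 7.27 cpm (2.15 to 4.41 cpm), were also highest there. *Ccr2*, at 17.3 cpm, *F13a1*, at 20.6 cpm, and *Vcan*, at 1.12 cpm, were within the range of the other libraries there, and *Ms4a4c*, at 0.280 cpm, was below it. The median log2 fold change of the 3 tested monocyte markers was -0.09. Cnr1-/- library 3, in which the replication-dependent sum was highest, had 311 cpm of neutrophil markers, within the Cnr1+/+ range of 308 to 534 cpm. Without Cnr1-/- library 2, the one rich in these markers, the log2 fold change of *Hist1h2ap* was 0.99 (limma adjusted p of 0.0082). Those of *H3c4* and *H4c9* without a minimum level were 3.55 and 2.90, but with an adjusted p of 0.375 and 0.772, so that neither passed the threshold. The nominal p of *H2bc6* and *H1f2* was then 0.0884 and 0.0592, and that of *H1f0*, lower in Cnr1-/-, 0.0475. The part of these other cells in the histone values was not tested. The log2 ratio of the replication-dependent sum was between 0.72 and 1.12 when any single library was left out.

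The promoters of the histone genes were compared by sequence because 16 of the 19 chromosome 13 genes had the higher mean in Cnr1-/-, a count without a background share. RefSeq promoters (GRCm38.p6, 250 bases before to 50 after the start) were matched for 24 replication-dependent and 6 variant genes. CCAAT, searched on both strands, occurred in 19 of the 24 and 4 of the 6, against 37.4% of 32851 promoters, and TATAAA, searched in the same way, in 12 of the 24 and 1 of the 6, against 13.6%. A match is a description of the letters and not of binding. The promoter of *H3c4* (chr13:23575513-23575812, plus strand) is shown as an example with both motifs, which are in capitals in either orientation.
H3c4: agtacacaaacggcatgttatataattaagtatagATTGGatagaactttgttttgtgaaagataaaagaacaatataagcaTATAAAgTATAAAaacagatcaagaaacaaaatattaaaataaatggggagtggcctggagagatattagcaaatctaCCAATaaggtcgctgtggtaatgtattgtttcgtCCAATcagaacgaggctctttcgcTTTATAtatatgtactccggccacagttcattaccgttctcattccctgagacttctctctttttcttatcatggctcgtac
Of the 6 genes whose groups did not overlap, *H3c4* and *H4c4* held both motifs, *Hist1h2ap*, *H1f2* and *H2bc6* CCAAT alone and *H4c9* TATAAA alone.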

How the data were processed

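RNA of CD11b+ cells from 6 mice was sequenced, 1 library each, with the QuantSeq 3′ FWD kit, and groups were taken from the labels. The authors aligned trimmed reads to mm10 with STAR 2.6.1d, allowing up to 20 mappings per read, divided shared reads between genes by expectation-maximisation against Ensembl 99 in Partek Flow, and applied TMM. The deposited values are CPM, and the listed genes account for 50.1% to 59.1% of each library. Depth was derived from the value of 1 read. Between 83.4% and 85.5% of values were whole reads within 0.02 reads, so no count test was used, and intervals were not given because divided reads are not counts. No column was left unused.

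Genes averaging 10 CPM or more were tested: log2(CPM + 0.1) was fitted by genotype alone in limma 3.58.1 (lmFit, eBayes with trend; R 4.3.3), and p-values were adjusted by Benjamini-Hochberg over 6659 genes. On this scale the pseudocount pulls the fold changes of low genes towards 0, while the mean of logs can lie further apart than the log of the means where a library is near 0, as for *H3c4*. A two-sided exact permutation test was used for single genes. Histone genes and lists were chosen with earlier results of these data known. Histone genes were named when tested, when among the 3 most abundant of their class, or when the groups did not overlap with a group mean of at least 3. Genes of other lists were named when their nominal p was under 0.05 or when they were among the 2 most abundant. *Slbp*, *Lsm1*, *Mki67*, *Rrm1*, *Rrm2*, *Cenpf*, *Cdc6*, *Mcm6*, *Hira*, *Npm1*, *H2bu2*, *Ltf*, *Alas2*, *Slc4a1*, *Chil3*, *Ccr2*, *F13a1*, *Ly6c2*, *Plac8*, *Vcan*, *Ms4a4c*, *H2ac6*, *H2ac18* and the other low histone genes with values in the text were named after their values were seen.

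All 33 genes matched GENCODE M21 by position and strand. Sharing was measured over stretches of 50 bases. Steps were tested on simulated data. Alternatives were pseudocounts of 1 and 0.0001, no minimum and a minimum of 20, 3 scalings, eBayes without trend, voom, a block on the replicate number, and leaving out each library. Fits with no minimum combined with these, and sums of near-identical pairs, were added after seeing the data. Figures were drawn with matplotlib 3.10.9.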

Additional observations from a re-analysis of the deposited data

How the results depend on the processing

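Of the 8 tested histone genes, 2 had a nominal limma p under 0.05; the number was 8 with no minimum level (more genes tested), 1 with a minimum of 20, and 1 to 4 when single libraries were left out. Over all genes, 401 had a nominal p under 0.05, 339 of them higher in Cnr1-/-, against 993 with no minimum, 263 with a minimum of 20 and 251 to 600 without single libraries. Centring on the median, quantile normalisation and equal totals without mitochondrially encoded genes gave 375, 360 and 354, of which 197, 163 and 142 were higher, and shifted the median log2 fold change from 0.08 to 0.01, -0.0014 and -0.016. A fold change over 1.5 at an adjusted p under 0.1 was reached by 6 genes, by 14 with no minimum, by 0 under each of the 3 scalings and without the trend, and by 1 to 24 without single libraries. The adjusted p of *Hist1h2ap*, 0.0082, was 0.140, 0.214 and 0.171 under the 3 scalings, 0.825 without the trend and 7.9e-06 to 0.121 without single libraries; the cause was not tested. The log2 fold change of *H3f3a* was -0.010 and -0.016 with quantiles and with equal totals, and that of *H2az1* -0.00040, -0.023 and -0.024 under the 3 scalings. Without single libraries *H2az1* ranged from -0.051 to 0.16 and *H2az2* from -0.012 to 0.19. The log2 ratio of the variant sum was -0.0038 and -0.0088 with quantiles and equal totals. Same-numbered libraries did not deviate together (correlations of -0.056, -0.032 and -0.031). With 3 libraries per group this cannot settle whether the numbers pair the mice. With the replicate block 3 tested histone genes had a nominal limma p under 0.05 (*Hist1h2ap*, *H1f2* and *H2bc4*, the last with 0.0161), and 421 of all genes. The standard error of *Hist1h2ap* was 0.15 with the block and 0.21 without it. Depth limits the 11 genes under 1 cpm, which had at most 24.2 reads in any library.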
